A study of Xenopus laevis and Petromyzon marinus with 21 samples.

Results

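The genes described here code for the collagens, laminins, fibronectin and integrins of the frog Xenopus laevis, the main proteins of the extracellular matrix and the receptors that hold cells to it. They were taken by name: every gene of the deposited count table whose symbol starts as that of a collagen chain, a laminin chain, fibronectin 1, an integrin alpha or an integrin beta subunit. The rule caught 120 of 49282 genes. Of these, 2 code for proteins that bind an integrin (itgb1bp2.L and itgb3bp.L) and are given apart at the end. The remaining 118 carry 73 gene names, since Xenopus laevis keeps 2 copies of many genes, L on the long and S on the short chromosome of a pair; 45 names have both copies in the table, and copies are counted here as separate genes.

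Messenger RNA was sequenced from animal caps, the blastula's upper ectoderm whose cells are still pluripotent, taken from wild-type frog embryos and grown in a simple saline. Control caps came from embryos that received nothing and formed epidermis, and induced caps from embryos given mRNA of wnt8a, a Wnt ligand, and of chordin, which blocks BMP, when they had 2 cells, a treatment that turns the caps toward neural crest. Control and induced caps were collected at blastula stage 9, at stage 13 around the end of gastrulation and at neurula stage 17, with 3 libraries in each of the 6 groups, named a, b and c after their columns. No group received either mRNA alone or a control mRNA, so the injection and the induction cannot be told apart, and no label names the clutch or culture of a library, so p-values measure the spread between these libraries, which may be technical.

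Laminins and type IV collagen chains assemble the basement membrane, the thin sheet under an epithelium, while fibrillar collagens and fibronectin form the looser matrix between tissues. Integrins are pairs of an alpha and a beta subunit: alpha5 with beta1 binds fibronectin, alpha3 and alpha6 bind laminin, and alpha6 with beta4 anchors the epidermis to its basement membrane in hemidesmosomes. Neural crest cells leave an epithelium and migrate through a matrix rich in fibronectin and laminin, and in the frog they need fibronectin and its integrin receptor to do so.

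Libraries held 15596247 to 23292078 counts in genes (median 19021702). From stage 13 the caps carried the marker genes their labels ask for. Levels are in CPM, read counts scaled to a common library total with TMM factors. The summed level of 29 neural crest markers was 6893 to 7816 CPM in induced caps of stage 13 against 1364 to 1489 in control caps. That of 22 epidermal markers was 20290 to 21750 against 62090 to 71430. At stage 9 the neural crest sum was lower in induced caps, at 100.2 to 115.4 CPM against 275.5 to 476.9, without overlap. The epidermal sums of stage 9 overlapped, at 1419 to 1841 against 1538 to 1848 CPM. Muscle markers were uneven among induced caps. Their 29 genes summed to 105 CPM in library b of stage 13 against 25.3 and 28.2 in the others and 54.3 to 133 in control caps, and to 125 CPM in library c of stage 17 against 60.6 and 63.3. The control sum of stage 13 rests on few genes, with 2 to 3 of the 29 above 1 CPM, against 14 in induced library b and 8 in each of a and c. The muscle actin actc1.S stood at 25.9 CPM in induced library b of stage 13 and at 9.86 in induced library c of stage 17. It stood at 0.396 or less in the other induced libraries of both stages. Multiciliated cell markers summed to 240 CPM in induced library c of stage 13 against 73.1 and 92.4 in libraries a and b, and to 1308 to 1975 in control caps. Caps were sequenced whole, so fewer cells of a type and less RNA per cell cannot be told apart in any result here.

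Of the 118 matrix and integrin genes, 68 passed the filter on low counts and were tested, among 24499 genes of the whole table. The other 50 stood at a mean of 2.04 CPM or less in every group, and 2 of them, col4a1.S and col8a2.L, had no count at all. Both copies of col1a1, the main chain of type I collagen, were among the untested, as were col3a1, col2a1.S, col4a2.S, lama4.L and itga8. A mean of at least 5 CPM in 1 group or more was reached by 34 of the 118.

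At stage 9, shortly after the embryo's own transcription starts, induced and control caps differed in few genes, and in 1 of these. There 0.347% of all genes tested were higher in induced caps and 0.0653% lower, and among the 68 members 1 was higher and 0 were lower (edgeR's quasi-likelihood test, Benjamini-Hochberg adjusted p under 0.05 over all genes; DESeq2 also called 1 and 0). At an unadjusted p under 0.05, 4 members and 815 of all genes differed. The fit held no term for the column letter, though control and induced libraries of the same letter at stage 9 deviated together (correlation 0.798 to 0.828). Differences within letters may thus have been missed, and counts with the letter as a block are not given here for that stage. By stage 13, 18.9% of all genes were higher and 21.4% lower in induced caps. Among the 68, 16 were higher, 10 lower and 42 did not pass, with a median log2 fold change of 0.24 beside 0.01 over all genes. At stage 17, where 22.2% of all genes were higher and 22.8% lower, 19 of the 68 were higher, 9 lower and 40 did not pass, with a median of 0.11 beside 0.00. With library totals in place of TMM, 19 were higher and 6 lower at that stage, and of all genes called 61.5% were higher in place of 49.3%. The share of members called, 38.2% and 41.2%, was thus near that of all genes, 40.3% and 45%. Higher at both stages were 12 members, lower at both were 6, and 1, col12a1.L, was lower at stage 13 and higher at stage 17. Among those higher at stage 17, itga4.L and col26a1.S passed the filter only through induced caps of that stage. itga4.L is also among those higher at stage 13. The counts changed when single libraries were left out: without control library a of stage 13, 10 members were higher at that stage. The share of all genes called without that library is not given here, so this drop cannot be read as one of the members alone.

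**Figure D1:**
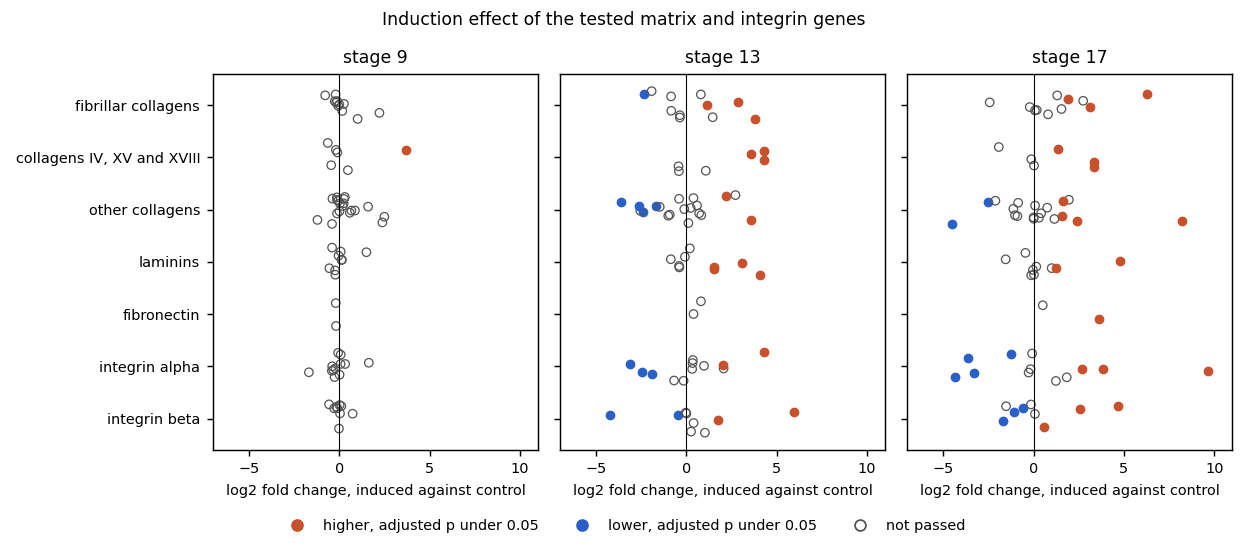
Log2 fold change of induced against control caps (horizontal axis) for the 68 tested matrix and integrin genes in 7 families (vertical axis, points spread at random within a family), at stages 9, 13 and 17. Filled points passed an adjusted p of 0.05 in edgeR; at stage 9 there is 1, at stages 13 and 17 laminins and collagens IV, XV and XVIII have filled points on the higher side alone, and integrins on both sides.

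Fibronectin, the matrix glycoprotein that migrating neural crest cells use as a substrate, fell in both arms from stage 9 to 13 and then rose again in induced caps while it fell further in control caps. The S copy, fn1.S, stood at 528, 328 and 452 CPM in control libraries a, b and c of stage 9, at 177, 92.2 and 112 at stage 13, and at 55.2, 32.3 and 32.5 at stage 17. Induced libraries held 507, 233 and 410 CPM at stage 9, 232, 118 and 149 at stage 13, and 824, 278 and 359 at stage 17. The arms overlapped at the first 2 of these stages and were far apart at the last, and library a was the highest of its group in all 6 groups. At stage 17 fn1.S was higher in induced caps by 3.61 ± 0.45 (log2 fold change ± SE, adjusted p = 9.3e-06). That effect exceeded the one at stage 13 by 3.22 ± 0.58 (interaction, adjusted p = 0.0032), and without the c libraries of every group by 3.28 (adjusted p = 0.079). In induced caps the rise from stage 13 to 17 was 1.55 ± 0.41 (adjusted p = 0.0069), lost without induced library a of stage 17 (0.94, adjusted p = 0.066) and without all c libraries (adjusted p = 0.067). At stage 13 fn1.S did not pass (adjusted p = 0.49), while the fit with the column letter as a block within the stage put it 0.39 higher (adjusted p = 0.023).

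The L copy of fibronectin did not follow the S copy. At stage 17 fn1.L stood at 3.62, 1.48 and 2.93 CPM in control libraries and at 5.73, 2.68 and 2.98 in induced ones, which overlapped. At stage 13 its levels were 6.05, 1.57 and 3.86 CPM against 11.2, 4.37 and 4.64, a difference that passed with the letter as a block, at 0.82 within the stage (adjusted p = 0.01) and 0.86 with one letter term (adjusted p = 0.017). In control caps both copies fell from stage 9 to 13, fn1.S by 1.78 ± 0.41 (adjusted p = 0.0011) and fn1.L by 1.74 ± 0.56 (adjusted p = 0.011; 0.051 without control library b of stage 13 and 0.12 without all c libraries), on the log2 scale.

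Laminins are trimers of an alpha, a beta and a gamma chain, and laminin 111, the first laminin of the embryo, is made of alpha1, beta1 and gamma1. Genes of all these chains (lama1.L, both copies of lamb1 and lamc1.L) were higher in induced caps of stage 13, and lama1.L and lamc1.L also at stage 17. Of the 9 laminin genes tested, 4 were higher (44.4%, beside 18.9% of all genes) and 5 did not pass at stage 13. At stage 17, 2 were higher, a share of 22.2% that equals that of all genes, and 7 did not pass. The summed level of the 15 laminin genes was 351 to 454 CPM in control caps of stage 13 and 992 to 1067 in induced caps, and at stage 17 it was 644 to 876 against 767 to 1151, so that the arms overlapped at the later stage alone of these.

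The alpha1 chain, lama1.L, stood at 5.14, 5.36 and 3.05 CPM in control libraries of stage 13 and at 51.4, 64.9 and 109 in induced ones. By stage 17 its level was 7.66, 3.88 and 3.32 CPM in control and 109, 127 and 172 in induced libraries. All induced libraries lay above all control libraries at both stages, and at stage 9 both arms were at 1.07 CPM or below. The log2 fold change was 4.06 ± 0.56 (adjusted p = 3.1e-05) at stage 13 and 4.78 ± 0.57 (adjusted p = 6.7e-06) at stage 17. The S copy of this gene is not among the members, so the L copy stands alone.

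The gamma1 chain, lamc1.L, was 55.4, 46.5 and 67.9 CPM in control and 185, 107 and 203 CPM in induced libraries of stage 13, higher by 1.54 ± 0.39 (adjusted p = 0.005). At stage 17 it was 146, 97.9 and 76.2 CPM in control and 326, 195 and 248 in induced libraries, again with no overlap, higher by 1.26 ± 0.39 (adjusted p = 0.015). That second call did not hold without control library c (1.07, adjusted p = 0.067), induced library a (1.06, adjusted p = 0.06) and without the c libraries of every group (1.10, adjusted p = 0.12). Its copy lamc1.S stood lower in induced caps at both stages, by values that passed with the letter as a block within the stage. These were 0.44 (adjusted p = 0.021) at stage 13 and 0.50 (adjusted p = 0.0085) at stage 17. Without the block neither passed, and the libraries overlapped at both stages (54.8, 56.6 and 68.1 CPM in control against 46.1, 32.6 and 56.3 in induced caps of stage 13).

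The beta1 chain was higher in induced caps at stage 13 and not at stage 17, in both copies. lamb1.L was near absent at stage 9, with 0.181, 0.0464 and 0.0883 CPM in control libraries, and reached 133, 136 and 145 CPM in control and 409, 452 and 325 in induced libraries of stage 13. lamb1.S stood at 35.4, 46.2 and 51.8 CPM in control libraries of stage 9 already, at 16.2, 36.4 and 33.8 at stage 13 and at 173, 154 and 100 at stage 17; induced libraries of stage 13 held 249, 263 and 201. So the copies differ in when their RNA is present: the S copy at every stage, the L copy in quantity only from stage 13.

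The stage 13 difference was 1.52 ± 0.26 for lamb1.L (adjusted p = 0.00026) and 3.05 ± 0.31 for lamb1.S (adjusted p = 1.9e-06). At stage 17 the arms overlapped, with lamb1.L at 152, 146 and 121 CPM in control and 151, 130 and 126 in induced libraries, and lamb1.S at 142, 118 and 173 in induced ones. The induction effect fell by 1.56 ± 0.37 for lamb1.L (adjusted p = 0.016) and by 3.03 ± 0.41 for lamb1.S (adjusted p = 0.00045) from stage 13 to 17. Between these stages lamb1.S rose in control caps by 2.31 ± 0.30 (adjusted p = 2.9e-05), and lamb1.L fell by 1.54 ± 0.26 in induced caps (adjusted p = 0.00028).

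The alpha5 chain, lama5.L, which forms the laminin of later epithelial basement membranes, did not pass in either comparison. It stood at 84.9, 95.8 and 135 CPM in control and 114, 72.4 and 173 in induced libraries of stage 13. By stage 17 it had reached 265, 167 and 212 against 333, 129 and 249 CPM. The arms overlapped throughout, and control caps rose from stage 9 to 13 by 2.30 ± 0.37 (adjusted p = 4.4e-05).

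Collagens of the basement membrane group, types IV, XV and XVIII, were the family whose members rose in the largest share at stage 13 among the 7 families: 3 of 6 tested were higher and 3 did not pass, at stage 17 again 3 and 3, beside 18.9% and 22.2% of all genes higher. The median log2 fold change of the 6 was 2.33 at stage 13 and 0.68 at stage 17, beside 0.01 and 0.00 over all genes, and the small number limits what this says of the family.

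The type IV chains col4a5.L and col4a6.L, which in mammals lie side by side in the genome and assemble together, moved alike. col4a5.L stood at 2.46, 1.73 and 2.78 CPM in control and 27.3, 43.6 and 67 in induced libraries of stage 13. Its stage 17 levels were 4.84, 4.21 and 2.15 against 20.8, 60.7 and 31.5 CPM. col4a6.L stood at 3.25, 3.70 and 3.12 CPM against 25.7, 43.8 and 52.4 at stage 13. By stage 17 these were 4.78, 3.83 and 1.11 against 19.1, 54.2 and 26.2 CPM. For both genes every induced library lay above every control library at the 2 stages, and library b was the highest induced library at stage 17. On the log2 scale the fold changes at stages 13 and 17 were 4.30 ± 0.72 (adjusted p = 2e-04) and 3.33 ± 0.69 (adjusted p = 0.00092) for col4a5.L. For col4a6.L they were 3.60 ± 0.60 (adjusted p = 0.00019) and 3.35 ± 0.60 (adjusted p = 0.00027).

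The more widespread type IV chains behaved otherwise. col4a1.L was the sole member called at stage 9: it stood at 0.363, 0.232 and 0.309 CPM in control and 3.71, 3.39 and 4.82 in induced libraries, higher by 3.69 ± 0.71 (adjusted p = 0.03). The groups did not overlap, yet the call was lost when the stage 9 libraries were fitted alone (adjusted p = 0.053), without any 1 of the 3 control libraries (adjusted p = 0.15, 0.2 and 0.15 for a, b and c), without induced library b (0.074) or c (0.11), and without all c libraries (0.17). At later stages col4a1.L was at 2.6 CPM or below in all libraries, with overlapping arms. col4a2.L followed the column letter rather than the treatment: at stage 9 it stood at 1.67, 1.11 and 4.90 CPM in control and 1.59, 1.17 and 4.38 in induced libraries.

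Type XVIII collagen, a basement membrane proteoglycan whose end fragment is endostatin, differed between its copies. col18a1.S stood at 6, 7.09 and 8.40 CPM in control libraries of stage 13 and at 150, 108 and 158 in induced ones. At stage 17 the levels were 16.9, 10.9 and 9.37 against 31.4, 34.2 and 27.7 CPM. The arms were apart at both stages, by 4.28 ± 0.24 (adjusted p = 7.2e-09) at stage 13 and 1.33 ± 0.21 (adjusted p = 0.00011) at stage 17. The effect thus fell by 2.95 ± 0.31 between these stages (interaction, adjusted p = 5e-05). col18a1.L stood at 82.5, 121 and 127 CPM in control and 246, 174 and 273 in induced libraries of stage 13, a difference that passed with the letter as a block within the stage (1.07, adjusted p = 7e-04). At stage 17 the arms overlapped, at 143, 64.8 and 95 against 119, 90.5 and 97.7 CPM.

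**Figure D2:**
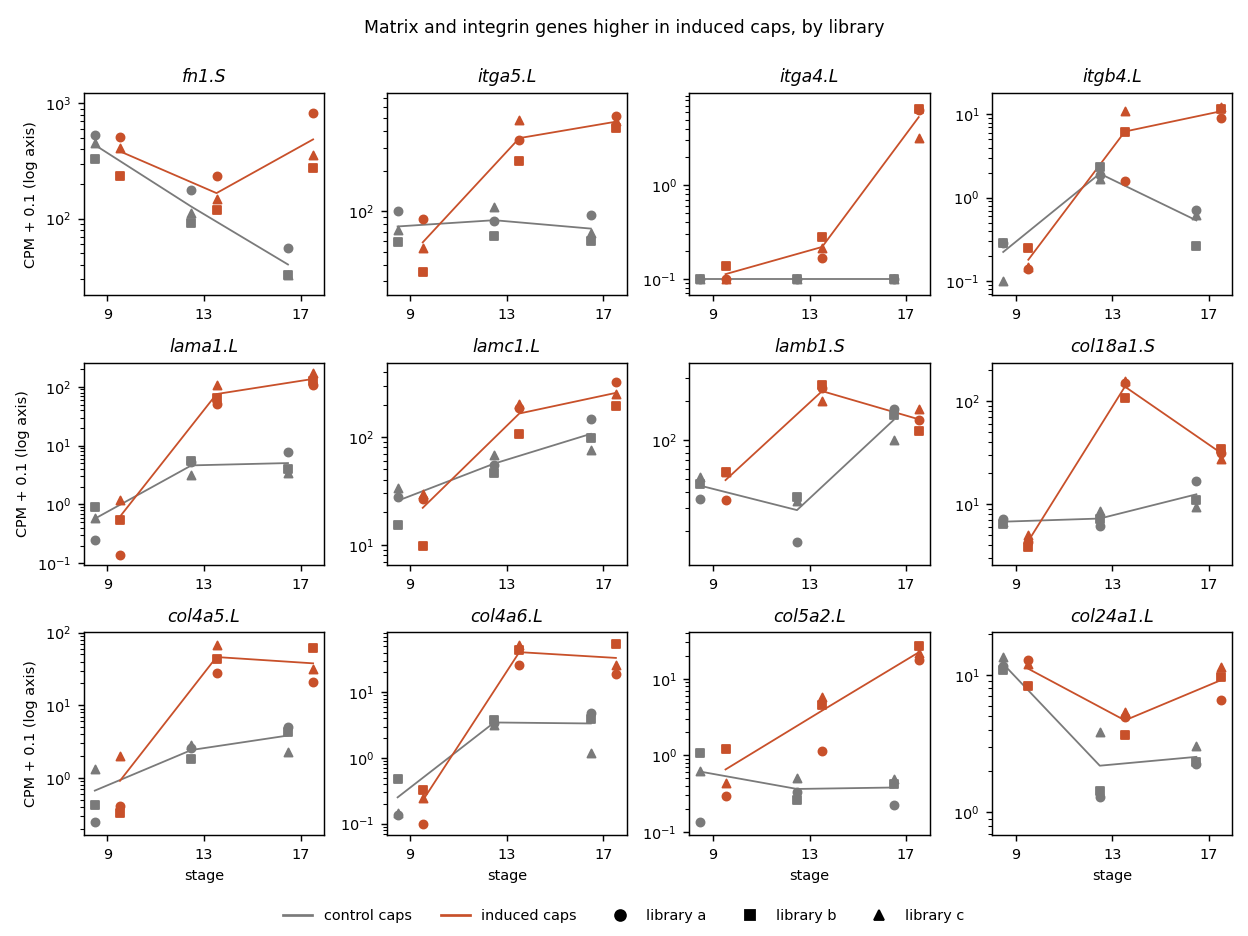
Level of 12 genes in each library, as CPM + 0.1 on a log axis, at stages 9, 13 and 17, in control caps (grey) and induced caps (orange); the marker shape gives the library and lines join group means. At stage 17 the 3 induced libraries lie above the 3 control libraries for 11 of these genes, and for lamb1.S the arms overlap.

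Fibrillar collagens, the chains that form the fibrils of connective tissue, were low in these caps, and those that differed did not move as 1 group. At stage 13, 3 of 11 tested were higher, 1 was lower and 7 did not pass, and at stage 17, 3 were higher and 8 did not pass. The share higher was 27.3% at each stage, beside 18.9% and 22.2% of all genes. The summed level of all 21 was 24.5 to 33.4 CPM in control caps of stage 13 and 13.5 to 24.3 in induced ones. At stage 17 it was 18.2 to 26.4 against 58.9 to 70.1 CPM.

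The alpha2 chain of type I collagen, col1a2.L, changed place between the arms. At stage 9 it was at 0.3245 CPM or below in all libraries of both arms. It stood at 28.3, 21.9 and 14.8 CPM in control and 4.51, 1.56 and 6.73 in induced libraries of stage 13. All 3 induced libraries were lower, with a difference of 2.34 ± 0.45 (adjusted p = 0.00057). Stage 17 values were 16.1, 10.7 and 15.1 against 32.9, 15.8 and 24.1 CPM, where the arms overlapped and the difference did not pass. The change of the effect between the stages did pass, at 3.14 ± 0.61 (interaction, adjusted p = 0.005), with induced caps rising by 2.51 ± 0.45 (adjusted p = 4e-04). col1a2.S was at 1.35 CPM or below in all libraries, and at stage 13 it stood at 0.742, 0.630 and 0.745 CPM in control against 0.196, 0.120 and 0.226 in induced libraries. That difference passed with the letter as a block (lower by 1.93 within the stage, adjusted p = 0.038, and by 1.95 with one letter term, adjusted p = 0.039). Type I collagen is built from 2 alpha1 chains and 1 alpha2 chain, and its alpha1 gene was under the filter in both copies.

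col5a2.L, a chain of the type V collagen that sets the width of type I fibrils, came up in induced caps alone of the 2 arms. Control libraries were at 0.228, 0.158 and 0.407 CPM at stage 13 and 0.123, 0.328 and 0.390 at stage 17, while induced libraries were at 1.05, 4.49 and 5.71 and then at 17.4, 26.9 and 22. It was higher by 3.79 ± 0.88 (adjusted p = 0.0026; 3.78 and adjusted p = 0.058 without all c libraries) and by 6.27 ± 0.91 (adjusted p = 4.4e-05). col24a1.L, a minor fibrillar collagen, fell in control caps from 11.5, 10.8 and 13.6 CPM at stage 9 to 1.20, 1.34 and 3.73 at stage 13 (by 2.52 ± 0.38, adjusted p = 2.1e-05). At stage 17 its induced libraries, at 6.46, 9.61 and 11.3 CPM, lay above the control libraries at 2.15, 2.24 and 2.93, by 1.91 ± 0.37 (adjusted p = 6e-04). Its call at stage 13 (1.13 ± 0.38, adjusted p = 0.024) was lost when those groups were fitted alone (adjusted p = 0.13) and without control library a or b (both 0.11) or induced library a (0.056) or c (0.065).

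col2a1.L, the chain of cartilage and notochord collagen, was at 3.42 CPM or below in all libraries. At stage 13 its levels were 0.114, 0 and 0.136 CPM in control and 0.196, 1.08 and 0.735 in induced libraries, and at stage 17 they were 1.35, 0.328 and 1.24 against 2.29, 1.47 and 3.42. Its highest induced libraries, b at stage 13 and c at stage 17, were those with the most RNA of both muscle and notochord markers among induced caps. The notochord and dorsal mesoderm sum was 85.6 CPM in the first and 25.9 in the second, and at most 12.2 and 2.67 in control caps of these stages; what part this had was not tested. The stage 13 difference passed (2.86 ± 0.93, adjusted p = 0.028) and was lost without control library a (0.062), b (0.086) or c (0.052), without induced library b (0.098) or c (0.056), and without all c libraries (0.13). At stage 17 it passed with the letter as a block within the stage alone (1.37, adjusted p = 0.027).

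The other collagens are a mixed family of 37 genes, of which 19 were tested: 2 were higher, 4 lower and 13 did not pass at stage 13, and 4, 2 and 13 at stage 17, shares near those of all genes or below them. col14a1.L, which binds to the surface of collagen fibrils, rose in control caps to 20.7, 20.2 and 28.9 CPM at stage 17 from 0.742, 1.34 and 1.90 at stage 13. Induced libraries rose from 0.0654, 0.0599 and 0.170 CPM at stage 13 to 1.27, 0.202 and 1.53 at stage 17 (by 3.25 ± 0.81, adjusted p = 0.0057; 0.051 without all c libraries), and were lower than every control library at both stages. Against control caps the gene was lower by 3.64 ± 0.81 (adjusted p = 0.0024) at stage 13 and by 4.53 ± 0.65 (adjusted p = 6.7e-05) at stage 17. col13a1.L, a collagen that spans the cell membrane, stood at 9.13, 6.51 and 11.5 CPM in control and 1.75, 1.32 and 1.71 in induced libraries of stage 17. It was lower in induced caps by 2.50 ± 0.78 (adjusted p = 0.016). That call did not hold without control library c (p adjusted to 0.053), induced library b (0.063) or all c libraries (0.08). At stage 13 its levels were 3.83, 5.75 and 6.91 against 2.29, 1.98 and 3.90 CPM. It was lower there by 1.02 with the letter as a block within the stage (adjusted p = 0.006).

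A type IX chain, col9a3.L, found with type II fibrils in cartilage, stood at 2.51, 1.80 and 1.30 CPM in control and 5.97, 6.63 and 4.60 in induced libraries of stage 17, higher by 1.61 ± 0.43 (adjusted p = 0.0062). The remaining called collagens were low and are named after their values were seen. col12a1.L was lower at stage 13 (-2.41 ± 0.47, adjusted p = 7e-04; 0.05 and no longer called without all c libraries) and higher at stage 17 (1.57 ± 0.41, adjusted p = 0.0054), at 3.02 CPM or below in these groups. col12a1.S was higher at stage 13 (3.58 ± 1.19, adjusted p = 0.024), a call lost without control library a (0.082) or c (0.084) or induced library b (0.08). col6a2.S was higher at both stages, by 2.20 ± 0.68 (adjusted p = 0.016; 0.068 and 0.078 without control library a or b) and 2.41 ± 0.67 (adjusted p = 0.0077).

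Of the others, col17a1.L, the hemidesmosomal collagen of the epidermis, stood at 2.63, 3.15 and 3.25 CPM in control and 1.44, 0.479 and 0.848 in induced libraries of stage 13, without overlap. It was lower in induced caps by 1.70 ± 0.63 (adjusted p = 0.04). The call was lost without any of 5 of the 6 libraries (adjusted p = 0.064 to 0.16), the exception being induced library a. It was also lost with library totals (0.051), with no filter (0.069) and without all c libraries (0.18). col9a3.S was lower in induced caps of stage 13 by 2.65 ± 0.71 (adjusted p = 0.0069). That call was lost without control library c (0.066) and without all c libraries (0.21). col26a1.S had no count in control caps of stage 17 and 1.21, 2.02 and 2.41 CPM in induced ones, at least 32.4-fold higher (3 counts taken as the floor over the control group). Outside those induced caps it had at most 7 counts in a library, so it passed the filter through that group alone. col5a2.S had 1 count in control and 13 in induced caps of stage 17, a ratio of 11 with a 95% counting interval of 1.65 to 467. Its call (adjusted p = 0.03) was lost in DESeq2 (0.055), without control library a (0.099) or c (0.1), induced library b (0.052) or c (0.079) and all c libraries (0.2).

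Among integrin alpha genes, those called higher code for alpha5 and alpha4, which bind fibronectin, and those called lower for alpha3 and alpha6, which bind laminin. By count, 2 of 12 tested were higher, 3 lower and 7 did not pass at stage 13, where 18.9% of all genes were higher and 21.4% lower. At stage 17, where these shares were 22.2% and 22.8%, the counts were 3, 4 and 5.

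The fibronectin receptor subunit itga5.L stood at 84.2, 65.5 and 108 CPM in control and 344, 236 and 480 in induced libraries of stage 13. The stage 17 levels were 94.3, 59.9 and 68.4 CPM against 515, 419 and 473. The induced libraries were above all control libraries at both stages, while at stage 9 they overlapped (99.8, 59.1 and 72 against 87.1, 35.1 and 53.3). The log2 fold change was 2.04 ± 0.33 (adjusted p = 0.00012) and 2.66 ± 0.33 (adjusted p = 1.1e-05). The copy itga5.S did not pass at either stage and overlapped at both, with 55, 74.3 and 57.3 CPM in control and 46.2, 59.1 and 61.7 in induced libraries of stage 13, and 103, 92 and 72.1 against 91.6, 79.2 and 66.1 at stage 17.

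itga4.L codes for the alpha4 subunit, which binds fibronectin and the cell surface protein VCAM1. It had no count in any of the 9 control libraries. Outside induced caps of stage 17 it had at most 3 counts in a library, so it passed the filter through that group alone. Its call there thus leans on the group that let the gene be tested. Induced caps held 0.0654, 0.180 and 0.113 CPM at stage 13 and 6.16, 6.33 and 3.11 at stage 17, where the gene was at least 83.9-fold higher than control caps (3 counts as the floor over the group, adjusted p = 4e-05). At stage 13 it had 6 counts in all, at least 1.81-fold more, and its call there (adjusted p = 0.027) was lost with the letter as a block within the stage (0.079), in DESeq2 (0.069), without any 1 control library (0.055 to 0.062), without induced library b (0.069) and without all c libraries (0.1). The S copy, itga4.S, stood at 0.184, 0.109 and 0.520 CPM in control and 4.83, 4.55 and 2.28 in induced libraries of stage 17, higher by 3.83 ± 0.95 (adjusted p = 0.0037).

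Both copies of the laminin receptor subunit itga3 were lower in induced caps at stages 13 and 17. itga3.S stood at 86.2, 88.6 and 76.6 CPM in control and 18.8, 11.4 and 15.1 in induced libraries of stage 13. At stage 17 its levels were 142, 121 and 123 against 18.1, 11.6 and 9.25 CPM. itga3.L stood at 28.9, 18.7 and 39.6 against 7, 7.18 and 9.33 CPM, and then at 104, 53.7 and 82.5 against 10.5, 4.10 and 4.73. No control library overlapped an induced one at these stages. On the log2 scale itga3.S was lower than in control caps by 2.47 ± 0.25 (adjusted p = 1.8e-06) and 3.31 ± 0.26 (adjusted p = 1.1e-07). For itga3.L these differences were 1.89 ± 0.37 (adjusted p = 0.00075) and 3.64 ± 0.40 (adjusted p = 2.8e-06). At stage 9 itga3.S stood at 21, 19.6 and 15.3 CPM in control and 17.8, 18.1 and 12 in induced libraries.

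The alpha6 subunit, the partner of beta4 in hemidesmosomes, was lower through its S copy at stage 13 and through both copies at stage 17. itga6.S stood at 59, 105 and 60.3 CPM in control and 5.23, 12 and 7.92 in induced libraries of stage 13. At stage 17 it stood at 99.6, 128 and 58.4 against 5.92, 5.01 and 3.24 CPM, and the arms were well apart at both stages. Against control caps it was lower by 3.15 ± 0.49 (adjusted p = 9.3e-05) and 4.34 ± 0.52 (adjusted p = 6.4e-06). At stage 9 itga6.S stood at 0.870, 2.50 and 4.06 CPM in control and 1.43, 3.16 and 3.165 in induced libraries. Both arms stood higher at stage 13 than this. itga6.L stood at 54.8, 67.7 and 64.6 CPM in control and 67.4, 97.9 and 67.7 in induced libraries of stage 13. This passed, as 0.30 higher, with the letter as a block within the stage alone (adjusted p = 0.049). At stage 17 itga6.L was 88.4, 87.7 and 63.7 CPM against 30.9, 41 and 30.5, lower in every induced library, by 1.23 ± 0.27 (adjusted p = 0.0015).

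The effect on itga6.L changed by -1.54 ± 0.38 from stage 13 to 17 (interaction, adjusted p = 0.02), and this call moved just past the threshold without control library a of stage 13 (0.051), control library a (0.054) or b (0.055) of stage 17, induced library b of stage 13 (0.057) or induced library c of stage 17 (0.054). The alphaV subunit, itgav.L, which pairs with several beta subunits, held 26.1, 17.3 and 24.3 CPM in control and 27.6, 29.8 and 28.1 in induced libraries of stage 13. These did not overlap and passed with the letter as a block within the stage alone (0.35, adjusted p = 0.038). At stage 17, at 45.3, 48.9 and 49.2 against 43, 41.3 and 51 CPM, the arms overlapped.

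Of the 9 integrin beta genes tested, 2 were higher, 2 lower and 5 did not pass at stage 13, shares near the 18.9% and 21.4% of all genes, and at stage 17 the counts were 3, 3 and 3, beside 22.2% and 22.8%. The beta1 subunit, the common partner of alpha3, alpha4, alpha5 and alpha6, changed little. itgb1.L stood at 158, 177 and 202 CPM in control and 115, 130 and 145 in induced libraries of stage 13. The levels of stage 17 were 194, 194 and 178 against 130, 121 and 132 CPM. It was lower in each induced library and fell by 0.46 ± 0.13 (adjusted p = 0.01; 0.061 without control library c, 0.056 without induced library a) and 0.56 ± 0.13 (adjusted p = 0.0024; 0.055 with library totals). Its copy itgb1.S overlapped between the arms, at 89.4, 86.2 and 84.6 against 80.8, 113 and 116 CPM at stage 13, and at 140, 165 and 123 against 116, 137 and 133 at stage 17.

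The beta3 subunit, a partner of alphaV, showed one of the wider gaps. itgb3.L stood at 36, 35.8 and 25.6 CPM in control and 0.131, 0.539 and 4.47 in induced libraries of stage 13, the highest induced value being that of library c, the one with the most multiciliated cell markers, and what part this had was not tested. At the later stage it was 102, 87.8 and 78.3 CPM against 30.9, 15.8 and 36.2, still without overlap. Multiciliated cell markers then summed to 89.1, 67.3 and 72.2 CPM in induced libraries a, b and c, so library c did not have the most of them. Against control caps itgb3.L was lower by 4.21 ± 0.66 (adjusted p = 0.00011) and by 1.69 ± 0.57 (adjusted p = 0.023). The later call was lost without control library a (0.073) or b (0.057) or induced library b (0.11), with no filter (0.067) and, at an adjusted p of 0.05, with library totals.

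The beta4 subunit of hemidesmosomes rose through its L copy. itgb4.L stood at 1.77, 2.20 and 1.56 CPM in control and 1.5, 5.99 and 10.9 in induced libraries of stage 13, with overlap. The stage 17 values were 0.613, 0.164 and 0.520 against 8.93, 11.6 and 12.1 CPM, with none. The stage 17 difference was 4.65 ± 0.74 (adjusted p = 1e-04). The call at stage 13 (1.74 ± 0.64, adjusted p = 0.041) was lost when those groups were fitted alone (0.079), without control library a (0.099), b (0.079) or c (0.12), without induced library b (0.071) or c (0.24) and without all c libraries (0.38). itgb4.S went the other way at stage 17, from 1.41, 0.820 and 0.585 CPM in control to 0.181, 0.607 and 0.175 in induced libraries, which overlapped. Against control caps it was lower by 1.51 with the letter as a block within the stage (adjusted p = 0.028). With one letter term it was lower by 1.66 (adjusted p = 0.032), and it did not pass without a block.

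The beta5 copies, partners of alphaV, parted at stage 17. itgb5.L was 6.74, 7.77 and 9.17 CPM in control and 10.9, 12.8 and 11.1 in induced libraries, higher by 0.56 ± 0.20 (adjusted p = 0.03; 0.081 and 0.055 without control library a or b, 0.069 without induced library b). itgb5.S was 16, 19.1 and 24.3 CPM against 7.42, 9.97 and 10.7, lower by 1.08 ± 0.34 (adjusted p = 0.018). That call was lost with library totals (0.062), without control library c (0.073) and without induced library a (0.071). In both copies the arms did not overlap. At stage 13 itgb5.L, at 14.3, 16.8 and 19.5 against 24, 21.1 and 21.3 CPM, passed with the letter as a block within the stage alone (0.40, adjusted p = 0.025).

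itgb6.L, another partner of alphaV, was named after its values were seen: it had 1 count in control and 88 in induced caps of stage 13, a ratio of 79.6 with a counting interval of 13.9 to 3180 (adjusted p = 4.6e-05), and induced libraries stood at 1.37, 2.57 and 1.36 CPM. At stage 17 it had 1 and 9 counts, and that call (adjusted p = 0.035) was lost with the letter as a block within the stage (0.06), in DESeq2 (0.083), with no filter (0.063), without control library a or c (both 0.11), without induced library c (0.16) and without all c libraries (0.32).

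**Figure D3:**
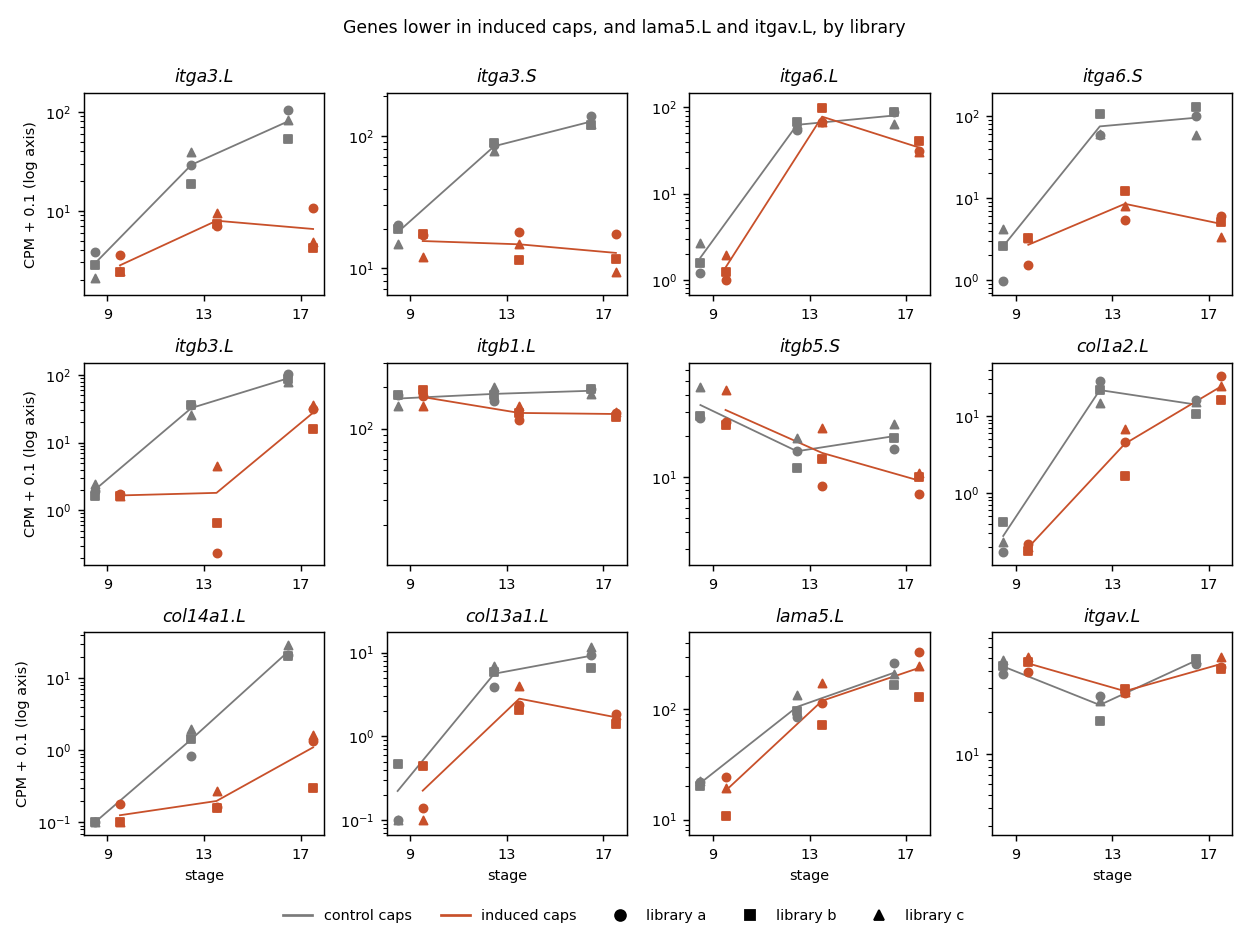
Level of 12 genes in each library, as CPM + 0.1 on a log axis, at stages 9, 13 and 17, in control caps (grey) and induced caps (orange); the marker shape gives the library and lines join group means. Both copies of itga3, itga6.S, itgb3.L and itgb1.L lie lower in every induced library at stages 13 and 17, col1a2.L does so at stage 13 alone, and lama5.L and itgav.L overlap at stage 17.

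The L and S copies of a gene often answered the induction unequally. Of the 18 genes with both copies tested, 1 had both copies higher and 1 both lower at stage 13, and 2 and 2 at stage 17; 1 had copies called in opposite directions at each stage, col12a1 and then itgb5. Whether the copies differed was tested on the log2 ratio of L to S in each library, with limma over the 6174 genes of the table that have both copies tested. At stage 13, 12 of the 18 passed, and at stage 17 again 12, beside 30.8% and 33.1% of all 6174 genes. At stage 9, where 0.405% of all genes passed, 0 of the 18 did in limma, and 0 of the 18 and 192 of all 6174 had an unadjusted p under 0.05.

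In 6 genes the L copy gained on the S copy by at least 1 log2 unit at both stages. For itga5 the ratio rose by 2.16 ± 0.31 (adjusted p = 1e-04) at stage 13 and 2.84 ± 0.31 (adjusted p = 8.5e-06) at stage 17. For itga6, whose 2 copies were lower at stage 17, the L copy kept more of its RNA, with 3.40 ± 0.30 (adjusted p = 1.3e-06) and 2.95 ± 0.30 (adjusted p = 4.8e-06). lamc1 gave 1.94 ± 0.29 and 1.78 ± 0.29, col5a2 2.17 ± 0.47 and 4.39 ± 0.47, itgb4 1.23 ± 0.41 and 4.44 ± 0.41, and col9a3 1.05 ± 0.37 and 1.37 ± 0.37. All 12 of these values passed (adjusted p = 0.043 or less). That of itgb4 at stage 13 was lost without control library b (0.089) or c (0.094) or induced library c (0.14), and those of col9a3 without control library c (0.19 and 0.054) and, at stage 13, without control library b (0.084) or induced library a (0.12) or b (0.17) with a pseudocount of 2 CPM (0.11) and with library totals (0.05). The S copies of col5a2, itgb4 and col9a3 stood at 0.9415, 1.41 and 1.491 CPM or below in all libraries. The sizes of their ratio changes thus depend on the 0.5 CPM added before the log, which flattens changes of such low copies.

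In other genes the S copy gained. fn1 gave -3.04 ± 0.26 (adjusted p = 1.3e-06) at stage 17, and at stage 13 did not pass (0.38 ± 0.26, adjusted p = 0.32). col18a1 gave -3.11 ± 0.70 (adjusted p = 0.0035) and lamb1 -1.60 ± 0.38 (adjusted p = 0.0055) at stage 13, and neither passed at stage 17. col14a1 gave -4.51 ± 0.69 (adjusted p = 0.00017) at stage 17, where the L copy was lower in induced caps and the S copy was at 1.51 CPM or below. The 2 copies of itga3 and of col27a1 did not pass at either stage, with changes of 0.68 ± 0.32 and -0.29 ± 0.32 for itga3 and of -0.36 ± 0.37 and -0.06 ± 0.37 for col27a1. How reads that fit both copies equally were counted is not stated in the labels or the table, so values of near-identical copies are uncertain.

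**Figure D4:**
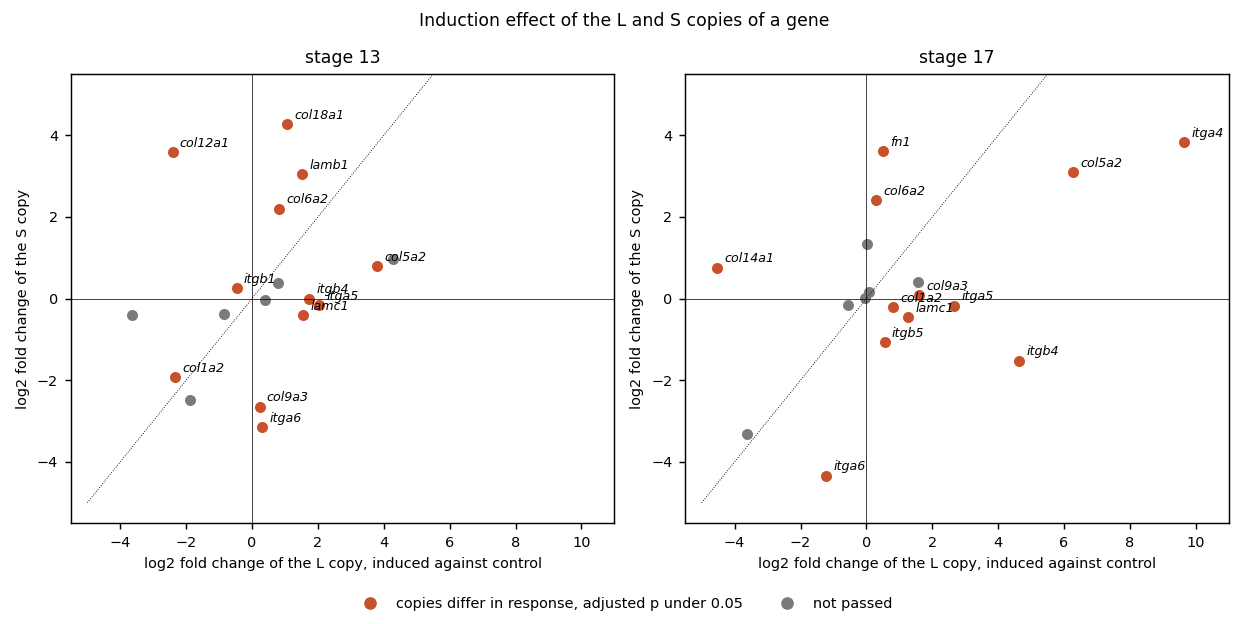
Log2 fold change of induced against control caps for the L copy (horizontal axis) and the S copy (vertical axis) of the 18 genes with both copies tested, at stages 13 and 17; on the dotted line the copies change equally. Orange, named points are the 12 genes at each stage whose L to S ratio changed in limma; for itga4 at stage 17 the L copy had no count in control caps, so its position depends on the fit.

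With age, control caps gained more of these genes than they lost. From stage 9 to 13, where 36.2% of all genes were higher and 35.1% lower (71.3% called), 30 of the 68 rose and 14 fell, with a median of 0.30 beside -0.02 over all genes. lamb1.L rose by 10.20 ± 0.44 (adjusted p = 3.5e-11), col1a2.L by 6.94 ± 0.60 (adjusted p = 4.1e-08) and col13a1.L by 5.49 ± 0.97 (adjusted p = 1e-04), on the log2 scale. The count depends on scaling: with library totals in place of TMM, which shifts the median of all genes by -0.79, 23 rose and 24 fell. The same change took the share higher among all genes called from 50.8% to 33.9%. From stage 13 to 17, where 20.1% of all genes were higher and 19% lower (39.1% called), 12 rose and 5 fell. col14a1.L rose by 4.14 ± 0.64 (adjusted p = 2e-04), and fn1.S and itgb5.L fell by 1.67 ± 0.41 (adjusted p = 0.0047; 0.077 without all c libraries) and 1.09 ± 0.20 (adjusted p = 0.00045).

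Induced caps had a like count in the first interval. From stage 9 to 13, where 35% of all genes were higher and 35.5% lower (70.6% called), 30 of the 68 rose and 17 fell, with a median of 1.29 beside -0.02. Library totals gave 25 and 22, with a shift of the median of all genes of -0.65. Of all genes called, 49.7% were higher with TMM and 35.2% with library totals. lamb1.L rose by 10.22 ± 0.41 (adjusted p = 3e-11), col4a6.L by 8.29 ± 0.82 (adjusted p = 1.9e-07) and lama1.L by 7.23 ± 0.67 (adjusted p = 1e-07), while itgb5.L fell by 1.29 ± 0.19 (adjusted p = 1.8e-05) and col24a1.L by 1.26 ± 0.36 (adjusted p = 0.0052). From stage 13 to 17, where 21% of all genes were higher and 18.7% lower (39.7% called), 17 rose and 6 fell. Without induced library c of stage 17, 11 rose, and without all c libraries 7. The shares of all genes called in those smaller fits are not given here. Among genes with a mean of at least 5 CPM in either group, itga4.L, itgb3.L and col5a2.L rose most, with itgb3.L at 3.98 ± 0.66 (adjusted p = 2e-04) and col5a2.L at 2.55 ± 0.73 (adjusted p = 0.011; 0.062 without all c libraries), and col18a1.S fell by 2.15 ± 0.22 (adjusted p = 3.3e-06).

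The induction effect itself changed with stage in some members. From stage 9 to 13, where 8.88% of all genes gained and 12.7% lost (21.6% called), the effect rose in 9 of the 68 and fell in 8. From stage 13 to 17, where 4.03% gained and 4.07% lost (8.1% called), it rose in 3 and fell in 5. With the letter as a block it rose and fell in 5 and 8 (one letter term) or 7 and 11 (within the stage). The shares of all genes in the block fits are not given here. The first set of rises includes col18a1.S, by 4.91 ± 0.32 (adjusted p = 1.6e-07), lama1.L, by 3.94 ± 0.93 (adjusted p = 0.006), and col4a5.L, by 3.82 ± 1.07 (adjusted p = 0.017; 2.59 and 0.17 without control library c of stage 9). The falls include itgb3.L, by 3.92 ± 0.90 (adjusted p = 0.0051), itga6.S, by 3.22 ± 0.68 (adjusted p = 0.003), and itga3.S, by 2.25 ± 0.34 (adjusted p = 0.00022).

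Genes whose products work with these proteins gave counts of their own. These are read against the shares of all genes at stage 13 (18.9% higher, 21.4% lower) and stage 17 (22.2% and 22.8%). Single genes named from these lists follow no naming rule and were picked after their values were seen. Basement membrane linkers, which tie laminin to type IV collagen or to the cell, had 4 higher, 2 lower and 9 not passed of 15 at each stage. nid2.L, which codes for nidogen 2, averaged 12 ± 3 CPM in control caps of stage 17 and 273 ± 14 in induced ones (SD, n = 3), higher by 4.53 ± 0.24 (adjusted p = 3.4e-09). Dystroglycan, a laminin receptor that is no integrin, was higher at stage 13 through dag1.S (1.58 ± 0.25, adjusted p = 9.5e-05). It was lower at stage 17 through both copies (dag1.L by 2.55 ± 0.46, adjusted p = 0.00028).

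Other matrix glycoproteins had 15 higher, 3 lower and 17 not passed of 35 at stage 13, and 13, 5 and 17 at stage 17. The fibrillin gene fbn3.L was higher by 8.40 ± 0.64 (adjusted p = 1.5e-07) at stage 13, and mfap2.L, a partner of fibrillin in microfibrils, by 6.76 ± 0.60 (adjusted p = 3.7e-07) at stage 17. Proteoglycans and hyaluronan genes had 9 higher, 3 lower and 18 not passed of 30 at stage 13, and 12, 5 and 13 at stage 17. Their summed level went the other way, at 2576 to 3843 CPM in induced and 10250 to 11200 in control caps of stage 13 and at 649 to 749 against 3284 to 3882 at stage 17. The versican gene vcan.L was higher by 3.85 ± 0.79 (adjusted p = 0.001) at stage 13. The hyaluronan synthase has1.S was lower in induced caps by 3.10 ± 0.22 (adjusted p = 4.5e-08) at stage 17. has2.L had no count in control caps and 3.99 ± 1.88 CPM (SD, n = 3) in induced caps of stage 17.

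Enzymes and chaperones of collagen assembly had 7 higher, 9 lower and 19 not passed of 35 at stage 13, and 10, 7 and 18 at stage 17. Their summed level was lower in induced caps at both stages, at 1924 to 1991 against 2952 to 3482 CPM and at 2440 to 2591 against 3105 to 3243. serpinh1.S, the collagen chaperone HSP47, was higher by 4.19 ± 0.33 (adjusted p = 2e-07) at stage 13 and by 1.01 ± 0.28 (adjusted p = 0.0075) at stage 17. The intracellular complex that couples integrins to the cytoskeleton had 5 higher, 14 lower and 26 not passed of 45 at stage 13, and 4, 20 and 21 at stage 17, with medians of -0.05 and -0.54 beside 0.01 and 0.00. At stage 17 the log2 fold change was -4.79 ± 0.26 (adjusted p = 3.4e-09) for plec.S, whose product plectin links alpha6beta4 to keratin, -6.18 ± 0.70 (adjusted p = 4.3e-06) for the epidermal kindlin fermt1.S, and -2.63 ± 0.23 (adjusted p = 3.3e-07) for the actin crosslinker actn1.S. src.L and the more widespread kindlin fermt2.L were higher at that stage, by 1.07 ± 0.17 (adjusted p = 9.3e-05) and 1.11 ± 0.19 (adjusted p = 0.00018).

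Between the arms, the summed level of epidermal markers differed in the direction of the lower integrin and adhesion genes. It was 35920 to 50690 CPM in induced and 84670 to 112200 in control caps of stage 17, with all 22 genes above 1 CPM in every library of both groups. Within induced caps this sum was higher at stage 17 than at stage 13, where it was 20290 to 21750 CPM. The summed level of neural crest markers was higher in induced caps of stage 17, at 9938 to 11020 against 1078 to 1235 CPM. Neural plate markers were higher in induced caps at both stages, at 1445 to 1595 CPM in induced and 106 to 131 in control caps of stage 13 and at 427 to 646 against 65.6 to 77.6 at stage 17. Within induced caps their sum was thus lower at stage 17 than at stage 13. Markers of notochord and dorsal mesoderm were higher in induced caps at every stage, at 253 to 498 against 99.1 to 138 CPM at stage 9, at 52 to 85.6 against 5.77 to 12.2 at stage 13 and at 13.9 to 25.9 against 1.26 to 2.67 at stage 17. Multiciliated cell markers were lower in induced caps, at 73.1 to 240 against 1308 to 1975 CPM at stage 13 and at 67.3 to 89.1 against 1215 to 1583 at stage 17. What part these shifts had in the matrix and integrin results was not tested.

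The 2 binding protein genes were not called in any induced against control comparison. itgb1bp2.L, the muscle protein melusin, stood at 0.523, 2.81 and 0.283 CPM in induced libraries of stage 13 and 0.121, 0.253 and 1.58 at stage 17. At these stages it was highest in the induced library with the most muscle marker RNA. At stage 9 it was highest in induced library c, at 1.12 CPM, which had the lowest muscle sum of its group, 3.75 CPM. Control libraries stood at 0.171, 0.158 and 0.542 CPM at stage 13, where their muscle sums were 107, 133 and 54.3 CPM. Those sums had 2 to 3 of the 29 muscle genes above 1 CPM, against 14 in induced library b. At stage 17 control libraries stood at 0.613, 0.0547 and 0.715 CPM, with muscle sums of 18.9 to 32.3 CPM. itgb3bp.L, a protein of the cell nucleus also known as CENPR, stood at 7.23, 6.62 and 7.61 CPM in control and 9.96, 9.26 and 10.4 in induced libraries of stage 17, which did not overlap and did not pass.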

How the data were processed

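Per the labels' protocols, messenger RNA was selected by its poly(A) tail and made into strand-marking libraries. The authors deposited raw read counts per gene, 1 column per library. The submitters' processing notes name fastp 0.23.2, STAR 2.6.0 and HTSeq 1.99.2; those notes name no roles, and build, annotation and the counting's use of strand are not stated in the labels or the table, so overlapping and antisense genes cannot be told apart. The 5 summary lines were set aside.

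Counts were tested with edgeR 4.0.16 in R 4.3.3 (TMM, filterByExpr by group, robust quasi-likelihood test, two-sided, 1 fit of 18 libraries, Benjamini-Hochberg over 24499 genes), and the L to S ratio of copies with limma 3.58.1 on log2 of CPM plus 0.5. The latter test was chosen after the data were seen. On simulated data with 24499 genes, the edgeR test recovered 32% of log2 changes of 1 and 85% of 2 for stage 13. Of its calls 4.1% were false. These changes were set only in genes with a mean above 5 CPM, and libraries were drawn without a shared letter effect. Recovery for lower genes, or with such an effect, was thus not measured. For 6174 gene pairs the limma test recovered 49% and 82%, with 4.38% false. DESeq2 1.42.0 was an alternative. CPM use TMM factors of 0.785 to 1.4. Gene lengths were not used here, so levels are not compared between genes. Counting intervals and floors cover counting error only.

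Named genes were both copies of 18 genes listed by name and the binding proteins. Added to these were the 2 largest changes each way per family and induced against control comparison (mean of at least 5 CPM). So were the 3 largest each way per other comparison. Other members are said to be chosen after their values were seen. The genes named from the lists of genes that work with these proteins were chosen so too. Members, lists and named genes were chosen with earlier results of these data known.

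The table's columns give group and letter, and no label holds the letters. Control and induced libraries of the same letter and stage deviated together (correlation 0.333 to 0.828 in 9 of 9 pairs). In the other arm of their stage, 18 of 18 libraries correlated best with their own letter. Letters were thus taken to pair libraries. Libraries of the same letter at different stages also correlated (0.179 to 0.513 in 36 of 36 pairs). The main fit held no letter term, for comparisons within or between stages. Block values stand beside induced against control results of named genes whose call the block within the stage changed. The 3 lamprey libraries were not analysed here.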

Additional observations from a re-analysis of the deposited data

Results flagged for a closer look

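The results below were picked out because the induction effect of a gene at one stage differed from that at the stage before by a test of the difference itself (interaction in edgeR, adjusted p under 0.05); values are the change of the log2 fold change.

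From stage 9 to 13 the effect rose by 4.91 for col18a1.S, 3.94 for lama1.L, 3.82 for col4a5.L, 3.79 for col4a6.L, 3.63 for col5a2.L, 2.9 for lamb1.S, 2.44 for itga5.L and 1.76 for lamc1.L. It changed by -4.11 for col4a1.L, -3.92 for itgb3.L, -3.22 for itga6.S, -2.25 for itga3.S and -1.82 for itga3.L. For col4a1.L the earlier effect was the higher one, on levels of at most 4.82 CPM. Members outside the named genes passed too. For these the effect changed by 5.91 for itgb6.L, -4.19 for col17a1.L, -2.95 for col9a3.S and -2.28 for col12a1.L.

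Among the named genes, the calls of 5 rest on single libraries. How far the calls of the other members rest on single libraries is not given here, for either interval. That of col4a6.L became 2.14 (adjusted p = 0.57) without control library b of stage 9, and it did not pass in the fit blocked within the stage (adjusted p = 0.069). That of col4a5.L became 2.59 (adjusted p = 0.17) without control library c of stage 9. Those of col5a2.L (adjusted p = 0.15 without control library b of stage 9), lamc1.L (0.08 without control library b of stage 13) and itga3.L (0.064 without control library c of stage 13) were also lost without other libraries.

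From stage 13 to 17 the effect rose by 3.22 for fn1.S and 3.14 for col1a2.L. It also rose by 3.98 for col12a1.L, which is not among the named genes. The effect changed by -3.03 for lamb1.S, -2.95 for col18a1.S, -1.75 for itga3.L, -1.56 for lamb1.L and -1.54 for itga6.L. The call of itga3.L (adjusted p = 0.048) was lost without any of 9 of the 12 libraries (0.068 to 0.13), and with library totals (0.067).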

How the results depend on the processing

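Counts of members called stayed within 1.5 times their value under DESeq2, median-of-ratios size factors and no filter. Those that did not are as follows. The 1 member higher at stage 9 became 0 when the groups were fitted alone and without all c libraries (an alternative chosen after the data were seen), and 0 to 1 when single libraries were left out. The 16 higher at stage 13 became 10 without control library a. With library totals, 24 in place of 14 fell in control caps from stage 9 to 13, where 33.9% of all genes called were higher in place of 50.8%. With only the groups compared 8 in place of 17 fell in induced caps. Without induced library c of stage 17, 11 in place of 17 rose in induced caps from stage 13 to 17, and without all c libraries 7. Without all c libraries, 3 in place of 8 lost effect from stage 9 to 13. From stage 13 to 17 leaving out single libraries gave up to 6 gains in place of 3 and down to 3 losses in place of 5. The cause was not tested in any of these. Shares of all genes called with libraries left out are not given here, so such drops cannot be read as results about the members alone.

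With the replicate letter as a block, gains of effect from stage 13 to 17 were 5 (one letter term) or 7 (within the stage) and losses 8 or 11; at stage 13 members higher and lower were 17 and 13, or 21 and 15, and at stage 17 20 and 11, or 20 and 13. For named genes, induced against control calls that the block within the stage changed stand in the report. Not every other changed call is given by gene. The shares of all genes called in the block fits are not given here, so the block counts say nothing of an excess among members.

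Of all genes called at stage 17, 49.3% were higher with TMM and 61.5% with library totals, which shift the median of all genes by 0.23; for induced caps from stage 13 to 17 these shares were 52.8% and 65.8%, and for the change of effect in that interval 49.7% and 64%. No called member turned direction with library totals in any comparison. Copy pairs with an unequal response numbered 9 to 13 at stages 13 and 17 under every alternative. Uncalled pairs of a named gene and a comparison that are given by level alone numbered 58. Of these, the fold change of 43 turned sign under at least 1 alternative and 0 passed in the turned direction. Under at least 1 alternative 1 of the 58 passed. Uncalled pairs given with their block values are not among the 58. Depth limits genes under about 1 CPM, which rest on few counts.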

Other observations

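Some members differed between libraries by letter more than by treatment, with like values in both arms; they were chosen after their values were seen, and what the letters stand for is in no label. itgb8.L, a subunit that pairs with alphaV, stood at 19.5, 0.325 and 0.221 CPM in control libraries a, b and c of stage 9 and at 16, 0.829 and 1.17 in induced ones, so that library a was high in both arms. itga9.L, a subunit that binds tenascin, stood at 4.06, 3.43 and 0 CPM in control and 5.03, 4.33 and 0 in induced libraries of that stage, with no count in either library c. col9a1-b stood at 5.95, 0.742 and 11.1 CPM in control and 5.88, 0.753 and 9.64 in induced libraries, lowest in b in both. col18a1.L stood at 3.70, 24.8 and 3.23 against 3.48, 17.1 and 2.43 CPM, highest in b in both.

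Other members, also chosen after their values were seen, were present at stage 9 in both arms and fell later in both. col6a6.S, a type VI collagen chain, stood at 1.81, 0.927 and 3.53 CPM in control and 1.59, 0.753 and 2.48 in induced libraries of stage 9, and at 0.0678 CPM or below in all later libraries. It fell from stage 9 to 13 in control caps (150 counts to 1, adjusted p = 0.00022) and in induced caps (112 counts to 2, adjusted p = 0.00051). col16a1.L, a collagen of fibril surfaces, fell in control caps by 1.09 ± 0.36 (adjusted p = 0.012; 0.06 without all c libraries) from stage 9 to 13 and by 2.39 ± 0.40 (adjusted p = 0.00023) from stage 13 to 17, and in induced caps by 3.35 ± 0.42 (adjusted p = 2e-05) in the second interval.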
